A study of Rattus norvegicus with 16 samples.

Results

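The glutathione transferases are described here through 10 genes of the rat lung, Gsta1, Gsta3, Gsta4, Gstm1, Gstm2, Gstp1, Gstt1, Gsto1, Mgst1 and Mgst2, out of 10411 genes with a symbol of their own on the array. The genes were chosen by symbol in the platform annotation, and each of the 10 had exactly 1 probe set, a group of short probes whose combined signal stands for a transcript. The array held 15866 probe sets besides controls, and 11106 of them, including those of 9 of the 10 genes, were bright enough to be tested; Gstt1 was too dim.

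The samples were lung RNA from 2 kinds of rat and 2 exposures, in 4 groups of 4 arrays that the labels call biological replicates. The groups were SH rats (spontaneously hypertensive, an inbred line that develops high blood pressure) exposed to sulfur dioxide (SO2, an irritant gas), SH rats kept in air, SD rats (Sprague Dawley, an outbred stock) exposed to SO2, and SD rats kept in air. The sources used here give no dose, length of exposure, sampling time, age or sex. By its title the study uses SH rats to model airway disease from the gas, so the questions are which genes responded to SO2 in either strain, whether the responses were alike, and how the strains differed. SH and SD rats differ in their whole genetic background, so a strain difference cannot be assigned to any single locus here.

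Glutathione transferases join the tripeptide glutathione to reactive, electron-poor molecules, which makes them more soluble and easier to export from the cell. The soluble enzymes fall into classes (alpha, mu, pi, theta, omega), and a separate family of membrane-bound enzymes carries the prefix Mgst. Several classes also reduce lipid hydroperoxides, and in the lung these enzymes are best known from airway epithelium, where club cells and their relatives meet inhaled oxidants and foreign chemicals. Many transferase genes are known targets of Nrf2, a transcription factor that binds antioxidant response elements in DNA after oxidative or electrophilic stress.

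One array stood apart from its label and touches every result on SD rats in air. Its label gives SD rats in air, and it is called SD air replicate 2 here. Replicate numbers are the order of the arrays within each group. Of the 90 probe sets that differed between the strains in SO2, some lay nearer the SH air mean than the SD air mean. They numbered 12 to 26 on its 3 companions in the group and 70 on this array. Gsta3, described below, is among the 90, and its own value on this array counts among the 70. Terf2ip, a telomere protein gene with a strong strain difference, gave 693.8 on it, while the other 3 SD air arrays gave 1982.2 to 2363.4 and the 4 SH air arrays 424.8 to 733.2. Most differences that rest on SD air arrays are therefore also given without it. For some genes of the pathway lists only the adjusted p is given without it. The dim Gstt1 and the 3 genes most like Gsta3 are given with all arrays alone. Median signals of the 16 arrays lay between 250.25 and 281.75. The summed signal of 6 alveolar type II markers on the array, out of 7 listed, ran from 86950 to 120700. The values are bulk tissue signals, so fewer cells of a type and less RNA per cell cannot be told apart.

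The 3 promoter windows that hold a match to the core of the antioxidant response element are shown: those of Gsta3 and of Gsta1, its neighbour on chromosome 9, whose values are set beside each other, and that of Gstp1, where the match is shared with a second motif. Each window runs from 250 bases before the start of the gene to 50 after it, 5′ to 3′ on the strand of the gene, from RefSeq in the build GRCr8; capitals mark the core, TGACNNNGC, searched on both strands. The Gsta3 window is chr9:31154739-31155038 (plus strand), the Gsta1 window chr9:31216483-31216782 (minus strand) and the Gstp1 window chr1:210769656-210769955 (minus strand).
Gsta3: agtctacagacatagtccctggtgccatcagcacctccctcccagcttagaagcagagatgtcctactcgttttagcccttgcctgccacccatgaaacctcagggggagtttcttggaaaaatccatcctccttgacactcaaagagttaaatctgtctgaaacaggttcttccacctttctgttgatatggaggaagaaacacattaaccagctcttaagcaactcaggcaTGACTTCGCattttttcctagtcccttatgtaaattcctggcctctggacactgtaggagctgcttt
Gsta1: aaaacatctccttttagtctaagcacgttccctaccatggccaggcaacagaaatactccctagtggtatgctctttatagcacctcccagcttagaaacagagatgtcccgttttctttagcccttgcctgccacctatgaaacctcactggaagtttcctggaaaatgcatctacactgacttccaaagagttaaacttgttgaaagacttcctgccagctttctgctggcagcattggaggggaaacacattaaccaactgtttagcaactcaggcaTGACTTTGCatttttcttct
Gstp1: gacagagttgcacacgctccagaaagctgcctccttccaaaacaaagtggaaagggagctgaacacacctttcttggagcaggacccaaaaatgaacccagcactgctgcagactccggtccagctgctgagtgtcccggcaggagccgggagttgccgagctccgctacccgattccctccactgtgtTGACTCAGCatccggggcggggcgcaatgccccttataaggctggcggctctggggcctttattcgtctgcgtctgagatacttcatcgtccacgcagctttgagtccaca
The core begins 17 bases before the start in Gsta3 (TGACTTCGC), 30 bases after it in Gsta1 (TGACTTTGC) and 61 bases before it in Gstp1 (TGACTCAGC). In Gstp1 it overlaps a match to the AP-1 site, TGANTCA, which is bound by Fos and Jun proteins.

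RefSeq windows were found for 8 of the 10 genes, in 9 entries, since Gsta3 has a second one without a match. The core was present in those 3 genes, and 12.1% of the 33469 windows of this length in the rat table hold it. The AP-1 site was present in Gstp1, Gsto1 (24 bases after the start) and Mgst1 (140 bases before it), and 7.33% of all windows hold it. The Gsta3 and Gsta1 windows were 81.9% identical over 248 aligned bases, and their longest shared run was 20 bases. These are matches of letters and not measured binding.

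Within the family, 1 gene passed the test between strains, in SO2 and averaged over exposures, and none passed the test for SO2. Gsta3 averaged 302.1 ± 44.2 over the 8 SH arrays and 134.1 ± 60.8 over the 8 SD arrays (SD). Over the 16 arrays the coefficient of variation (SD over mean) was 46.2% for Gsta3 and 51.5% for the dim Gstt1, and between 11.9% (Gsto1) and 17.2% (Gstm2) for the other 8 genes.

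**Figure D1:**
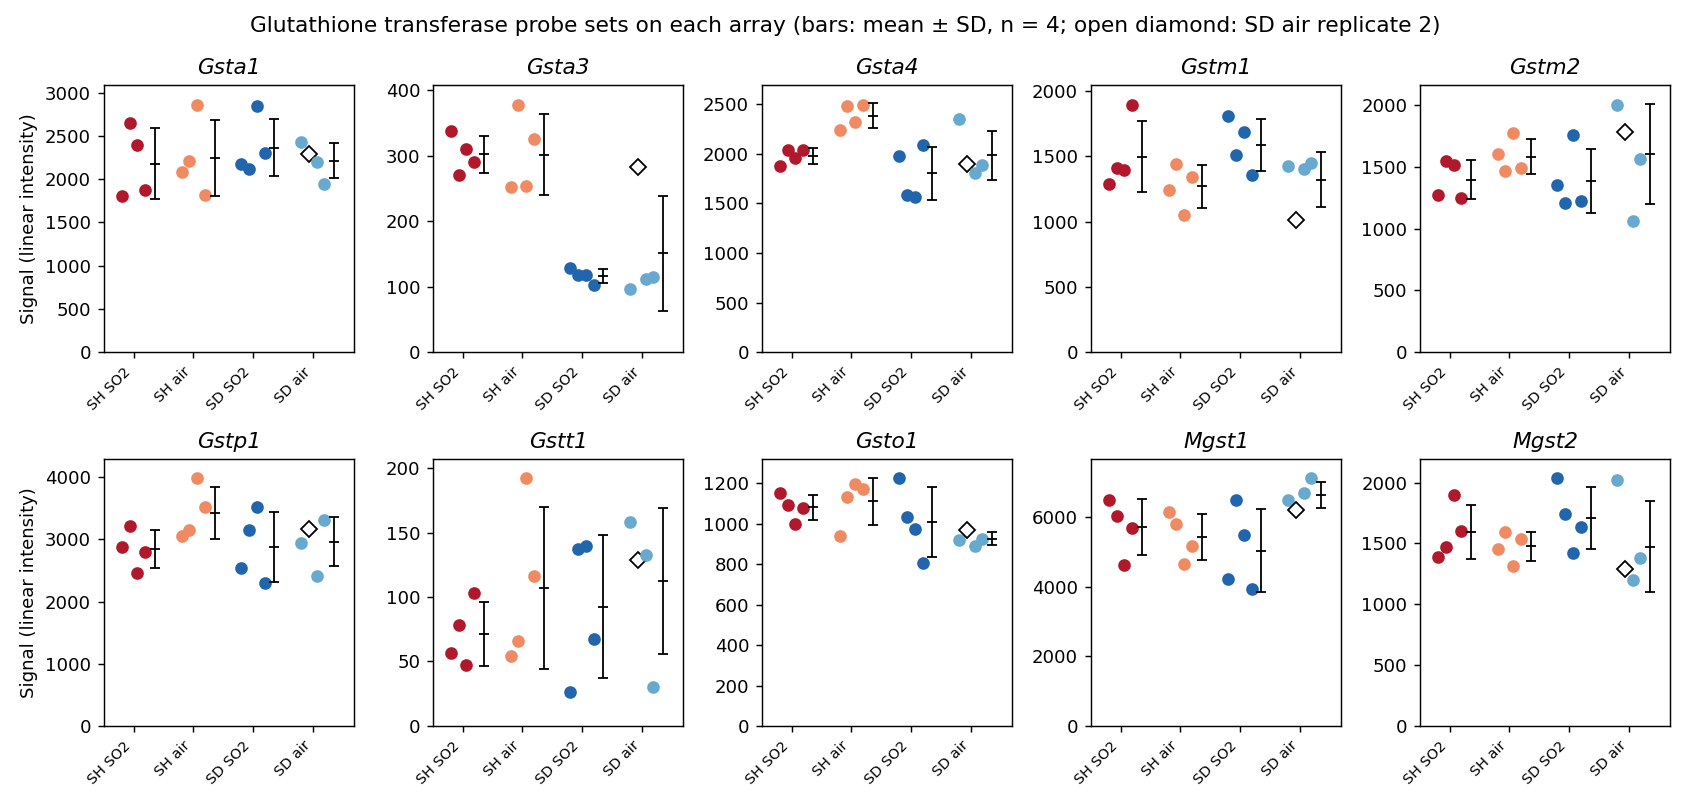
Signal (linear intensity, vertical axis starting at 0) of each of the 10 transferase probe sets on each array, by group. The group mean ± SD (n = 4) is beside the points, and the open diamond is SD air replicate 2. In the Gsta3 panel all SH arrays lie at 251.6 or more and all SD arrays at 129 or less, except SD air replicate 2 at 282.7; in the other panels the signals of all SH and all SD arrays overlap.

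Gsta3 is an alpha-class gene on chromosome 9; RefSeq lists Gsta5 and Yc2 as its other names, and the Yc2 subunit is known in rat liver for conjugating the epoxide of aflatoxin. In SO2, Gsta3 gave 337.9, 270.6, 309.9 and 290.5 on the SH arrays, against 129, 117.5, 117.7 and 103.3 on the SD arrays. The lowest SH array was above the highest SD array by more than the range of either group. Gsta3 averaged 302.2 ± 28.7 in SH SO2 rats and 116.9 ± 10.5 in SD SO2 rats (SD, n = 4 each), a log2 difference of 1.26 (SE 0.246), or 2.39-fold on the scale of log2(signal + 16), which understates changes of dim probe sets. Limma gave an adjusted p of 0.0141 (Benjamini-Hochberg over all 11106 probe sets). Of the 9 transferases tested, Gsta3 was the 1 called in this comparison, where 0.81% of all probe sets were called (90 of 11106) and groups did not overlap in 5.58%. The call was lost without SH SO2 replicate 3, where the difference was 1.25 with an adjusted p of 0.0509.

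In air, Gsta3 gave 251.6, 378, 253.2 and 325 on the SH arrays, against 96.7, 282.7, 111.5 and 114.6 on the SD arrays. The value of 282.7 is that of SD air replicate 2, which lay inside the SH range, and the other 3 SD arrays lay far below every SH array. With all arrays the difference was 1.03 (SE 0.246, 95% interval 0.51 to 1.54), and it did not pass the test (adjusted p = 0.179 by limma). No transferase and no other probe set was called in this comparison (0 of 11106, or 0%, with 709 at an unadjusted p under 0.05). Without SD air replicate 2, Gsta3 averaged 302 ± 61.2 in SH air rats (n = 4) and 107.6 ± 9.57 in SD air rats (n = 3), a difference of 1.35 (SE 0.192, adjusted p = 0.00104), and it was again the 1 transferase called of 9, beside 0.774% of all probe sets (1.04% in SO2 in the same fit). Gsta3 is itself among the probe sets that set this array apart. Its results without the array, here and below, are not independent of that choice.

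Averaged over both exposures, Gsta3 was 1.14 higher in SH rats (SE 0.174, adjusted p = 0.00123 by limma), and 1.30 higher without SD air replicate 2 (SE 0.13, adjusted p = 5.4e-06). Without that array, the 8 SH arrays spanned 251.6 to 378 and the 7 SD arrays 96.7 to 129, a separation that 0.99% of all probe sets shared. It was the 1 transferase called of 9, where 1.53% of all probe sets were called with all arrays and 2.49% without SD air replicate 2. At an unadjusted p under 0.05 there was 1 transferase in SO2 (Gsta3) beside 10.1% of all probe sets, 2 in air (Gsta3 and Gsta4) beside 6.38%, and 3 averaged over exposures (Gsta3, Gsta4 and Gsto1) beside 11.6%. Without SD air replicate 2 there was 1 in air (Gsta3, beside 9.72%), where Gsta4 had an unadjusted p of 0.0589, and averaged over exposures the same 3 genes stood beside 12.9%. The median averaged strain difference was 0.02 over the 9 transferases (0.05 without SD air replicate 2) and 0.002 over all probe sets tested.

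Gsta1, which encodes an alpha-class subunit with peroxidase activity toward lipid hydroperoxides, gave close values in all groups: 2179 ± 408 in SH SO2, 2243 ± 443 in SH air, 2362 ± 331 in SD SO2 and 2214 ± 204 in SD air rats (SD, n = 4 each). Its strain difference averaged over exposures was -0.06 (95% interval -0.28 to 0.16; -0.05 without SD air replicate 2), and it overlapped between the strains where its neighbour Gsta3 did not once SD air replicate 2 was left out. RefSeq lists Gsta3 among the other names of Gsta1, so the alpha-class names here are those of the platform annotation, matched by gene identifier. Probe sequences were not used here, so a signal is that of the probe set and not of 1 transcript alone, in either strain.

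Gsta4 encodes the alpha-class enzyme known for conjugating hydroxynonenal, a toxic product of lipid peroxidation. In SH rats it had the smallest p of the family for SO2, with 1876.2, 2038.7, 1953.7 and 2039.5 on the SO2 arrays against 2239, 2476.4, 2316 and 2491.3 on the air arrays. Every SO2 array lay below every air array, as did, in one direction or the other, 4.17% of all probe sets in this comparison. The means were 1977 ± 78.4 in SO2 and 2381 ± 123 in air (log2 difference -0.27, SE 0.112, unadjusted p = 0.0288, adjusted p = 0.949 by limma), so it did not pass. In SD rats Gsta4 overlapped between exposures, with SO2 arrays at 1802 ± 268 and air arrays at 1982 ± 246 (-0.14, adjusted p = 0.764; -0.16 once SD air replicate 2 was left out). Between strains it was 0.21 higher in SH rats on average, which did not pass (adjusted p = 0.266; 0.20 and 0.313 without SD air replicate 2).

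The pair of macrophage markers on the array, Cd68 and Gpnmb, out of 5 listed, had lower values beside Gsta4 in SH SO2 rats. Their summed signal was 4398 to 5782 in SO2 and 6039 to 8252 in air, also without overlap, and neither gene passed its own test (adjusted p = 0.949 by limma for each). Erythroid markers were lower in SH SO2 rats as well. The 3 tested all had negative values (median -0.43), and none passed. Their summed signal was 6792 to 9812 in SO2 and 8878 to 12200 in air, with overlap. The part of either cell type in the Gsta4 values was not tested.

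The mu-class genes Gstm1 and Gstm2, neighbours on chromosome 2, encode subunits that conjugate epoxides and quinones. Gstm1 was measured at 1287, 1409.4, 1396.5 and 1895.9 in SH SO2, against 1245.3, 1441.1, 1052.8 and 1339.9 in SH air rats. In SD rats it gave 1808.6, 1508.8, 1689.3 and 1356.2 in SO2, against 1423.6, 1009.8, 1406.1 and 1452.5 in air. The exposures overlapped in both strains, and the value of 1009.8 again belongs to SD air replicate 2, below the other 3 arrays of its group. Limma gave a difference of 0.23 for SH rats (adjusted p = 0.949), 0.27 for SD rats (adjusted p = 0.665) and 0.25 averaged over strains (adjusted p = 0.529); without SD air replicate 2 the SD value was 0.15 and the average 0.19. Gstm2 had values of the other sign, 1395 ± 159 in SO2 and 1583 ± 143 in air in SH rats, and 1387 ± 257 in SO2 and 1602 ± 402 in air in SD rats (-0.18 averaged over strains, adjusted p = 0.678; -0.15 and 0.796 without SD air replicate 2). Neither gene passed in any comparison, and whether the pair differed from each other was not tested.

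Gstp1 is the pi-class enzyme, abundant in lung epithelium and known for restoring oxidised peroxiredoxin and for binding Jun N-terminal kinase. It gave 2883.1, 3219.5, 2465.9 and 2804.6 in SH SO2 rats, against 3062.4, 3159.8, 3981.6 and 3518 in SH air rats. SO2 replicate 2 lay above 2 of the air arrays, so the groups overlapped, and the difference of -0.27 (SE 0.138, unadjusted p = 0.067, adjusted p = 0.949 by limma) did not pass. In SD rats it averaged 2877 ± 559 on the SO2 arrays and 2962 ± 394 on the air arrays (-0.05, adjusted p = 0.949).

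Gsto1, the omega-class enzyme known as a thioltransferase and dehydroascorbate reductase, was the steadiest of the 10 genes. It averaged 1081 ± 63.2 in SH SO2, 1111 ± 116 in SH air, 1010 ± 173 in SD SO2 and 925.7 ± 32.7 in SD air rats. The strain difference averaged over exposures was 0.18 (unadjusted p = 0.0471, adjusted p = 0.416 by limma; 0.19 and 0.382 without SD air replicate 2), which did not pass. In air it was 0.25 (adjusted p = 0.78 by limma), or 0.28 without SD air replicate 2 (adjusted p = 0.529), and did not pass either. The SH air arrays gave 941.5 to 1196.3. The SD air arrays gave 891.2 to 922.9, apart from SD air replicate 2 at 970. Gstt1, the theta-class enzyme that acts on small halogenated compounds, was the dim member: its signals ran from 26.1 to 191.9 with 71.18 ± 24.9 in SH SO2, 107 ± 62.7 in SH air, 92.45 ± 55.3 in SD SO2 and 112.3 ± 56.4 in SD air rats, and 9 of 16 arrays lay below the filter level of 109. In a fit of all 15866 probe sets the 95% interval of its SO2 difference was -1.40 to 0.59 for SH rats and -1.26 to 0.74 for SD rats, so a 2-fold fall lay inside both intervals.

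Mgst1 is a membrane-bound transferase and peroxidase of the endoplasmic reticulum and mitochondria. It had the smallest p of the family for SO2 in SD rats, with 4223.3, 6498.3, 5506.2 and 3939.1 on the SO2 arrays against 6515, 6216, 6698.3 and 7120.3 on the air arrays. All but 1 of the SO2 arrays lay below all air arrays, and the exception, SO2 replicate 2, lay above SD air replicate 2 alone. The means were 5042 ± 1190 in SO2 and 6637 ± 378 in air (-0.42, SE 0.142, unadjusted p = 0.0076), and the difference did not pass (adjusted p = 0.47 by limma); without SD air replicate 2 it was -0.45 with no overlap (adjusted p = 0.486), where 6.83% of all probe sets did not overlap. The SO2 arrays in SD rats varied more, from 3939.1 to 6498.3. Their actin 3′ to 5′ ratio, a sign of RNA degradation, spanned 1.47 to 2.94 against 1.4 to 1.76 in air. The ratio was 2.94 on SO2 replicate 2, which had the highest Mgst1 signal of the group. It was 1.47, 1.63 and 1.62 on SO2 replicates 1, 3 and 4. With that ratio and the 10th percentile of signal as covariates the difference was -0.54 (adjusted p = 0.313 by limma). It was -0.555 without SO2 replicate 2 and -0.315 without SO2 replicate 4, the extremes over all alternatives, and was never called. SO2 replicate 4 had the lowest Mgst1 signal. It also had the highest summed alveolar type II (120700), alveolar type I (41960) and club cell (44080) markers of all arrays. The summed signal of 4 heart muscle markers on the array, out of 5 listed, was 757.1 to 1767 on these SO2 arrays and 1489 to 3200 on the air arrays, and none of the 3 tested passed. The part of RNA quality, of heart muscle and of these other cell types in the Mgst1 values was not tested.

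In SH rats Mgst1 gave 5722 ± 794 on the SO2 arrays and 5450 ± 661 on the air arrays (0.07, adjusted p = 0.974). The test of the SO2 effect in SH minus that in SD rats gave 0.49 (SE 0.201, 95% interval 0.07 to 0.91, unadjusted p = 0.0244), and it did not pass (adjusted p = 0.981 by limma; 0.52 and 0.81 without SD air replicate 2). In air, every SH array (4660.8 to 6154.4) lay below every SD array (6216 to 7120.3), a difference of -0.29 that did not pass either (adjusted p = 0.78; -0.32 and 0.531 without SD air replicate 2), where 4.02% of all probe sets did not overlap.

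Mgst2, a related membrane enzyme that can make leukotriene C4 as well as detoxify, averaged 1591 ± 221 in SH SO2, 1475 ± 123 in SH air, 1708 ± 255 in SD SO2 and 1472 ± 375 in SD air rats. By limma its SO2 difference was 0.10 for SH rats (adjusted p = 0.967) and 0.23 for SD rats (adjusted p = 0.711). The groups overlapped in each case.

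**Figure D2:**
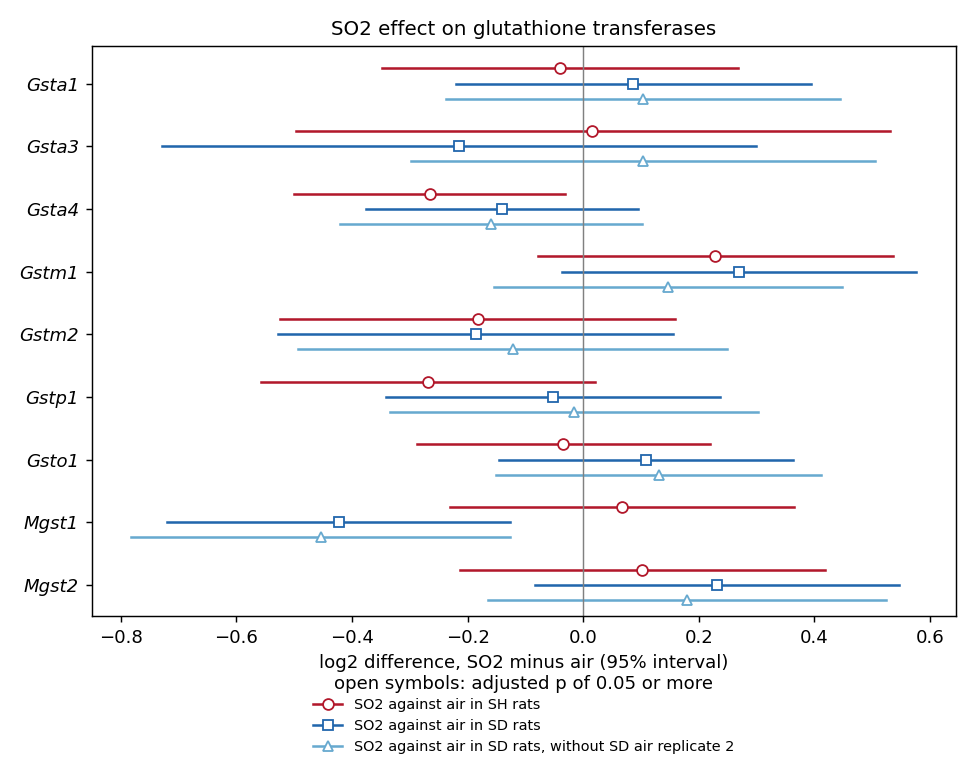
SO2 minus air on the log2(signal + 16) scale (horizontal axis) for the 9 transferases tested, with 95% intervals, in SH rats (circles), in SD rats (squares) and in SD rats without SD air replicate 2 (triangles). All symbols are open because no adjusted p was under 0.05; the points run from -0.45 to 0.27, and Mgst1 lies at 0.07 in SH rats and at -0.42 in SD rats.

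Limma called 0 of 9 transferases for SO2 in SH rats and 0 of 9 in SD rats, where 0% of all probe sets were called in either strain. At an unadjusted p under 0.05 there was 1 transferase in SH rats (Gsta4) beside 4.84% of all probe sets, and 1 in SD rats (Mgst1) beside 8.24%. Averaged over strains, 0 of 9 were called (0% of all probe sets), with 2 at an unadjusted p under 0.05 (Gsta4 and Gstm1) beside 8.45%. For the SO2 effect in SH minus that in SD rats, 0 of 9 were called (0% of all probe sets), with 1 at an unadjusted p under 0.05 (Mgst1) beside 4.65%.

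Without SD air replicate 2, limma again called 0 of 9 (0% of all probe sets) in each of these comparisons. At an unadjusted p under 0.05 there was then 1 transferase in SD rats (Mgst1) beside 8.27% of all probe sets, 1 averaged over strains (Gsta4) beside 7.92% and 1 for the difference between strains (Mgst1) beside 5.91%; Gstm1, averaged over strains, had an unadjusted p of 0.071. The SO2 difference in SD rats without that array was 0.10 for Gsta1, -0.12 for Gstm2, -0.02 for Gstp1, 0.13 for Gsto1 and 0.18 for Mgst2.

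The differences ran in both directions: 4 of 9 were positive in SH rats and 4 of 9 in SD rats, with medians of -0.04 and -0.05, while the median over all probe sets was 0.02 in each strain; without SD air replicate 2, 5 of 9 were positive in SD rats, with a median of 0.10. Gsta3, the gene called between strains, had SO2 differences of 0.02 (95% interval -0.50 to 0.53) in SH rats and -0.22 (-0.73 to 0.30) in SD rats. The SD value turned to 0.10 (-0.30 to 0.50) without SD air replicate 2. The Gsta3 effect in SH minus that in SD rats was 0.23 (-0.50 to 0.96, adjusted p = 0.994 by limma), and -0.09 (-0.63 to 0.46, adjusted p = 0.98) without that array. The SO2 and strain comparisons share their arrays.

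**Figure D3:**
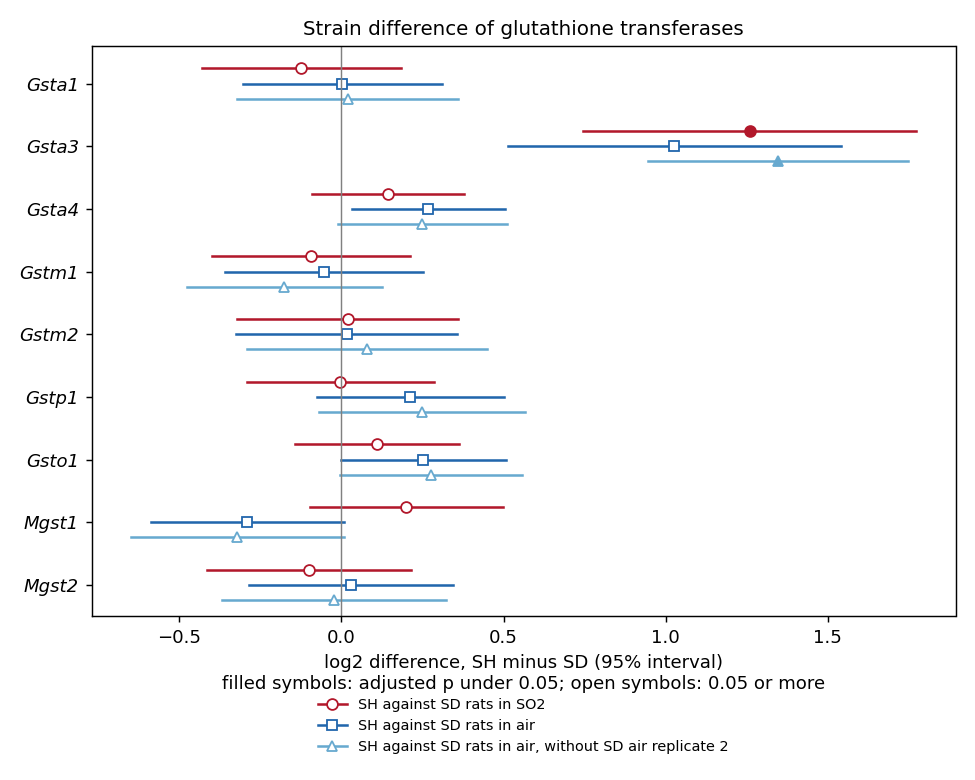
SH minus SD on the log2(signal + 16) scale (horizontal axis) for the 9 transferases tested, with 95% intervals, in SO2 (circles), in air (squares) and in air without SD air replicate 2 (triangles); filled symbols mark an adjusted p under 0.05. Gsta3 lies at 1.26, 1.03 and 1.35, and the other 8 genes lie between -0.32 and 0.28.

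Markers of other cells were examined with strain beside Gsta3, in 12 lists with 41 tested genes of 62 listed. Averaged over exposures, 1 of the 41 was called with all arrays (Cyp2f4, lower in SH rats, beside 1.53% of all probe sets), and without SD air replicate 2 there were 4, S100a8 and Fcgr3a higher and Cyp2f4 and Hbb lower in SH rats, beside 2.49%.

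The summed signal of 4 neutrophil markers (S100a8, S100a9, Cxcr2 and Fcgr3a, all on the array) was 2783 to 3411 in SH SO2 and 1088 to 2660 in SD SO2 rats. In air it was 2435 to 3349 in SH and 1292 to 3550 in SD rats, where 3550 was SD air replicate 2 and the other 3 arrays reached 2715. Averaged over exposures and by limma, S100a8 was 1.01 higher in SH rats (adjusted p = 0.0798; 1.24 and 0.004 without SD air replicate 2), Fcgr3a 0.50 higher (0.123; 0.58 and 0.0317) and S100a9 0.70 higher (0.194; 0.85 and 0.0501). Cxcr2, the receptor for neutrophil-attracting chemokines, had a value of the other sign. By limma it was -0.17 (adjusted p = 0.875), or -0.28 without that array (adjusted p = 0.731). In air without that array it was -0.80 (adjusted p = 0.502).

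Of 3 club cell markers on the array, out of 6 listed, Cyp2f4, a cytochrome P450 of club cells, was 1.26 lower in SH than in SD rats in SO2 (651.4 against 1573, adjusted p = 0.000282 by limma). In that comparison 0.81% of all probe sets were called. Scgb1a1, the main club cell secretory protein, differed by -0.10 (adjusted p = 0.832), and Aldh1a1, an aldehyde dehydrogenase, by 0.24 (adjusted p = 0.599). Hbb, a haemoglobin chain of red cells, averaged 8940 ± 1850 in SH and 11510 ± 2470 in SD rats (-0.37, adjusted p = 0.093; -0.41 and 0.0461 without SD air replicate 2). The 3 heart muscle markers tested were all positive in SO2, with a median of 0.70. Each had an unadjusted p under 0.05 with all arrays, beside 10.1% of all probe sets (2 of 3 without SD air replicate 2). Their adjusted p by limma was 0.167 for Myl7, 0.3 for Myh6 and 0.485 for Tnnt2. Averaged over exposures, all 4 ciliated cell markers (median -0.15) and all 5 smooth muscle markers (median -0.18) had negative values, and none of these passed. Without SD air replicate 2 the medians were -0.17 and -0.18, again with all values negative and none called.

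Summed signals of 5 liver markers overlapped between groups: 643.6 to 983 in SH SO2, 706 to 826.8 in SH air, 631.7 to 1042 in SD SO2 and 499.6 to 934.7 in SD air rats. None of the listed markers on the array lay below the 10th percentile of signal on all 16 arrays, and single groups were not examined. The part of any cell type in the Gsta3 difference was not tested.

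The rest of the glutathione pathway was followed with 5 lists of genes, each gene represented by its probe set of highest mean. For SO2, limma called 0 genes of every list in SH rats, in SD rats, averaged over strains and for the difference between strains. In each of these comparisons 0% of all probe sets were called. The value of smallest p for SO2 in SD rats among the synthesis and turnover genes was that of Ggt1, gamma-glutamyltransferase, which breaks down glutathione outside the cell, with 468 ± 94.1 on SO2 arrays and 342.2 ± 65.6 on air arrays (0.43, adjusted p = 0.522). Among the export genes it was Abcc1, a pump for glutathione conjugates, at 776.2 ± 115 in SO2 and 574.3 ± 74.3 in air without overlap, as in 3.54% of all probe sets (0.42, adjusted p = 0.476). Without SD air replicate 2 the values were 0.37 for Ggt1 (adjusted p = 0.611) and 0.45 for Abcc1 (adjusted p = 0.499). Nqo1 and Hmox1, classic Nrf2 targets, did not pass either. In SH rats Nqo1 differed by 0.17 and Hmox1 by -0.52 (adjusted p = 0.949 for each), and in SD rats Nqo1 differed by 0.14 (adjusted p = 0.843) and Hmox1 by 0.36 (adjusted p = 0.807), or by 0.06 and 0.56 without SD air replicate 2. Their list, the electrophile response partners, had 12 tested genes. Its SO2 differences in SD rats ran from -0.02 to 0.49. Without SD air replicate 2 they ran from -0.06 to 0.87.

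Between strains, averaged over exposures, 2 of the 12 electrophile response partners tested (of 16 listed) were higher in SH rats and none was lower, beside 1.53% of all probe sets called in this comparison (2.49% without SD air replicate 2). Srxn1, sulfiredoxin, which repairs over-oxidised peroxiredoxins, averaged 266.2 ± 42.9 in SH and 92.8 ± 56.5 in SD rats (1.57, SE 0.288, adjusted p = 0.0054 by limma, all 8 SH arrays above all 8 SD arrays, where 0.27% of all probe sets did not overlap). Its mean in SD rats lies below the filter level of 109. It was therefore tested only through its signals in SH rats, where it is high. Akr1b8, an aldo-keto reductase, averaged 468.9 ± 92.7 in SH and 280.6 ± 65.2 in SD rats (0.72, SE 0.151, adjusted p = 0.015). Both calls held without SD air replicate 2, at 1.76 for Srxn1 (adjusted p = 0.000523) and 0.79 for Akr1b8 (adjusted p = 0.00534). In the whole list 7 of 12 were positive with a median of 0.03 (6 of 12 and 0.01 without SD air replicate 2), against 0.002 over all probe sets. Hmox1 (0.42, adjusted p = 0.549; 0.52 and 0.377 without SD air replicate 2) and Akr7a3 (-0.36, adjusted p = 0.34; -0.40 and 0.235), an aflatoxin aldehyde reductase, did not pass.

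Of the 12 other transferases and related membrane enzymes tested, of 21 listed, 1 was called, beside 1.53% of all probe sets. Ltc4s, leukotriene C4 synthase, fell to 282.4 ± 25.1 in SH rats, against 380.8 ± 48.8 in SD rats (-0.41, SE 0.101, adjusted p = 0.0489, and 0.0235 without SD air replicate 2). Gstm5 had 356.6 ± 54.6 in SH and 262.8 ± 62.5 in SD rats (0.44, adjusted p = 0.142, and 0.0738 without SD air replicate 2) and did not pass. Of 13 synthesis and turnover genes tested, of 19 listed, Cndp2, a dipeptidase that splits cysteinylglycine, was the 1 called, beside the same 1.53%, at 1568 ± 179 in SH and 2078 ± 281 in SD rats (-0.40, SE 0.0873, adjusted p = 0.0203, and 0.00533 without SD air replicate 2); in SO2 alone it differed by -0.57 without overlap (adjusted p = 0.0276), where 0.81% of all probe sets were called and 5.58% did not overlap. None of 14 other glutathione-dependent enzymes (glutathione peroxidases, glutaredoxins and others) and none of 7 export and mercapturate genes tested, of 11 listed, was called, with or without SD air replicate 2.

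**Figure D4:**
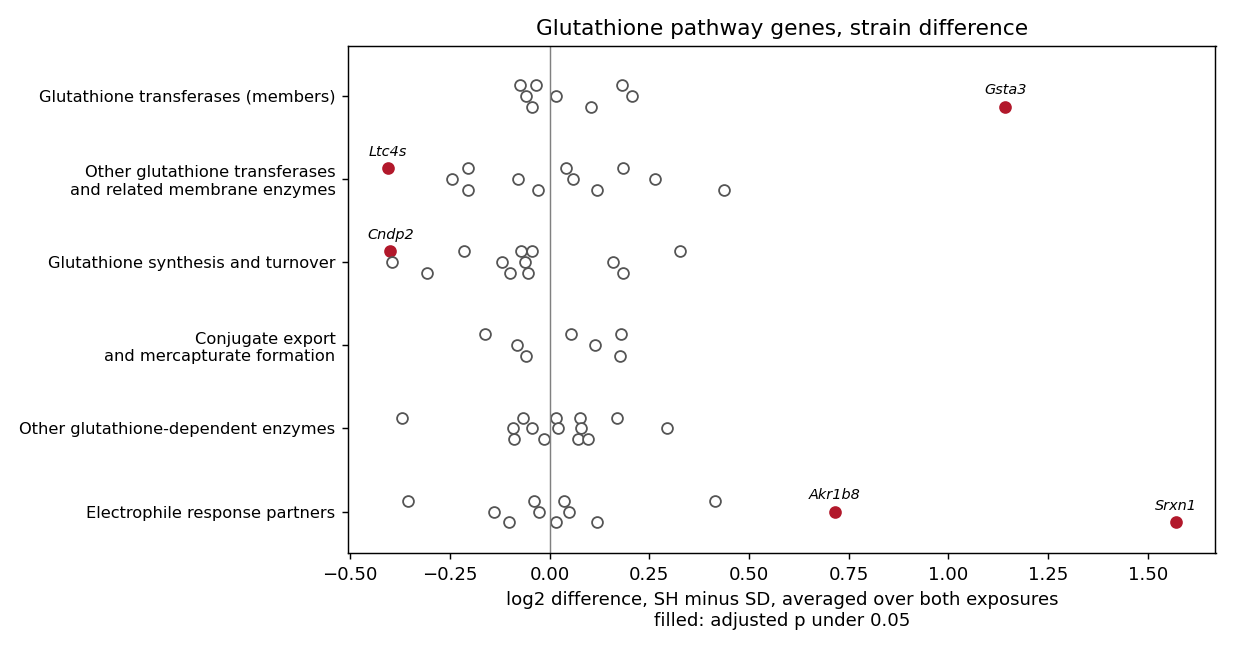
SH minus SD, averaged over both exposures, on the log2(signal + 16) scale (horizontal axis) for each tested gene of the transferase family and of the 5 pathway lists (rows); filled points have an adjusted p under 0.05. Gsta3 at 1.14, Srxn1 at 1.57 and Akr1b8 at 0.72 lie to the right, Ltc4s at -0.41 and Cndp2 at -0.40 to the left, and the open points lie between them.

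The genes whose signals followed Gsta3 most closely over the 16 arrays were Serpind1, RT1-A3 and Slco1a5. Likeness was the root mean square difference of log2 values, each gene centred on its own mean, and it was 0.317 for Serpind1, 0.324 for RT1-A3 and 0.332 for Slco1a5, against a spread of 0.656 for Gsta3 itself. Serpind1 encodes heparin cofactor II, RT1-A3 a class I molecule of the rat histocompatibility complex and Slco1a5 an organic anion transporter. Their strain differences averaged over exposures were 0.79, 1.06 and 0.79, beside 1.14 for Gsta3. The arrays share strain and the SD air replicate 2 array, so this likeness is a description of the same strain contrast.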

How the data were processed

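The deposited table gives linear signal intensity for every probe set of 16 Affymetrix arrays; the authors used GCOS, per the submitters' processing notes, with no version or algorithm in the sources used here. The deposited scaling was kept, since the trimmed mean intensity (2% off each end) lay between 499.4 and 499.9 on every array. The table has 15923 probe sets, including 57 controls that were removed. Among the 15866 that remained, a single gene symbol was given for 12783, several for 312 and none for 2771; 12748 of the first kind matched RefSeq (GRCr8) by gene identifier, and 0 changed name. Intensities entered as log2(intensity + 16). Probe sets in the lowest 30% of mean log2 value (level 109) were dropped, which left 11106.

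Differences were fitted by limma 3.58.1 (lmFit, eBayes with a trend) in R 4.3.3 with no covariate and 1 mean per group, which left 12 residual degrees of freedom. Benjamini-Hochberg adjustment ran over all 11106 probe sets, with calls at an adjusted p under 0.05. SO2 was set against air within each strain, averaged over strains and as a difference between strains, and SH against SD rats in SO2, in air and averaged, which makes 7 comparisons. The fit was tested on simulated data with known changes. Signals are mean ± SD, with precision set by 4 arrays a group.

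The members, the gene lists, the named genes and the tests were chosen with earlier results of these data known. All 10 members are named; array values are given for called members and, for SO2, the 2 of smallest p; of the lists, called genes and some of the 4 of smallest p are named. The 3 genes most like Gsta3 are those of smallest root mean square difference. Alternatives were offsets of 1 and 64, quantile normalization, centring on medians, no filter, the lower 50% left out, a replicate block, no trend, only the arrays compared, array quality covariates, and each array left out. Promoter windows came from RefSeq and were aligned with Biopython 1.88 in Python 3.11.15; figures used matplotlib 3.10.9.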

Additional observations from a re-analysis of the deposited data

Results flagged for a closer look

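Of 40 groups examined (10 transferases in 4 groups of 4 arrays), 2 held an array whose gap to the nearest of the other 3 was a large share of the range of the group, by Dixon's criterion; chance alone flags about 1 in 20 groups. Both were SD air replicate 2. Its Gsta3 signal was 282.7, where the group's other 3 arrays had 96.7 to 114.6. Its Gstm1 signal was 1009.8, where they had 1406.1 to 1452.5.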

How the results depend on the processing

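Over 26 alternatives, 16 of which left out 1 array each, the differences of the 9 tested transferases in 7 comparisons gave 1602 values on the same side of the threshold as reported, 1 that lost its call and 1 that gained it; no called difference changed sign. The call of Gsta3 in SO2 was lost without SH SO2 replicate 3, so that 0 transferases were called, and the number ran from 0 to 1 over the single arrays left out. In air, Gsta3 was called without SD air replicate 2, and the number likewise ran from 0 to 1. With the lower 50% of probe sets left out, Gsta3 was too dim to be tested, and 0 transferases were called in SO2 and 0 averaged over exposures; this follows from the filter. Averaged over exposures, the Gsta3 difference ran from 0.92 (offset 64) to 1.30 (without SD air replicate 2), with adjusted p up to 0.00449. The number of all probe sets called ran from 0 to 1 for SO2 in SH rats, 0 to 3 in SD rats, 0 to 11 averaged over strains, 0 to 86 between strains in air, 50 to 137 in SO2 and 112 to 276 averaged.

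Replicate numbers are the order of the arrays within each group, so equal numbers need not mark a pair. Of 16 pairs of same-numbered replicates, 2 had a correlation above 0.1 (range -0.249 to 0.151). These values cannot show whether any arrays were paired. With the replicate number as a block, no transferase call changed, and Gsta3 gave 1.26 in SO2 (adjusted p = 0.0201 by limma) and 1.14 averaged (adjusted p = 0.00233).

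Signals of Gstt1, near the filter level, and of Gsta3 in SD rats, at 4.05 times the 10th percentile of the array or more, limit the precision of their differences. The same holds for Srxn1 in SD rats, whose mean lies below the filter level. The sources used here name no scan or extraction batch.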
